A study of Mus musculus with 9 samples.

Results

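The mouse miRNAs described here are mmu-miR-155-5p, mmu-miR-146a-5p and mmu-miR-146b-5p, named without the prefix from here on, which are linked to the transcription factor NF-kB and to the response of innate immune cells to bacterial endotoxin. They were chosen by name, as 3 of the 1448 mature miRNAs in the deposited table of read counts. All 3 were among the 628 miRNAs tested, those that reached 10 reads in 3 or more of the 9 libraries. Small RNA was sequenced from the hippocampus of adult male C57BL/6J mice in a saline group, an LPS group and an LPS + GAS group, with 3 libraries each. The labels name no allele or transgene. LPS, an endotoxin of Escherichia coli 055:B5, was given once, at 1 mg/kg into the peritoneum, to every LPS and LPS + GAS mouse. GAS is gastrodin, a phenolic glucoside, and the LPS + GAS group was given 100 mg/kg of it 1 h after LPS by the labels. The methods also describe a concurrent injection, and the abstract of the paper places GAS before LPS. The saline group had no LPS and no GAS, and no group had GAS without LPS. The hour of tissue collection and the age of the mice beyond adult remain unsettled in these sources. The labels do not say whether a library came from a single mouse, so p-values measure only the spread between these samples.

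A miRNA is a short RNA that guides silencing proteins to messenger RNAs through pairing of its seed, the bases near its 5′ end. When endotoxin is sensed by Toll-like receptor 4 on macrophages or microglia, NF-kB is activated, and miR-155 and miR-146a are among the miRNAs whose transcription it is known to raise. MiR-155 is known for targets that restrain cytokine and phosphoinositide signalling, such as Socs1 and Inpp5d, and is commonly counted as proinflammatory. MiR-146a targets Irak1 and Traf6, signalling proteins of the same receptor pathway, and is known as a brake on NF-kB. MiR-146b comes from another gene and shares the seed of miR-146a.

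The mature sequences are shown because the seeds divide the 3 miRNAs into a pair and a single, and because few bases tell the members of the pair apart. Each is printed 5′ to 3′ as deposited, with the seed (bases 2 to 8) in capitals.
miR-155-5p: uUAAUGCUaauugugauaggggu
miR-146a-5p: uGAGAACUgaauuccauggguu
miR-146b-5p: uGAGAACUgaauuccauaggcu
The seed GAGAACU was found in 2 rows of the table, those of miR-146a-5p and miR-146b-5p, and the seed UAAUGCU in 1 row, that of miR-155-5p. MiR-146b-5p differs from miR-146a-5p by G18A and U21C, where position 1 is the base at the 5′ end. The pair is therefore identical at 20 of 22 positions, and their reads are told apart by 2 bases near the 3′ end. All 3 mature sequences matched RefSeq.

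The hairpins from which they are cut are shown next, with the mature 5p sequence in capitals, since the miR-146 pair has nearly the same mature RNA inside different precursors.
miR-155 hairpin: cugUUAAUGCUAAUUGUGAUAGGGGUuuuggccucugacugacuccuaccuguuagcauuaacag
miR-146a hairpin: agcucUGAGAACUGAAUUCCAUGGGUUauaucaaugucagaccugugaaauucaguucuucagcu
miR-146b hairpin: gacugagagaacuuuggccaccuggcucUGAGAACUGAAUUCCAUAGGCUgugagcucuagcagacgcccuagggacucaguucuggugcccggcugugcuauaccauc
The miR-155 and miR-146a hairpins have 65 bases each and that of miR-146b has 109. In GRCm38.p6, Mir155 lies on the plus strand at chr16:84714140-84714204, within an exon of the long noncoding host gene Mir155hg (84703167 to 84715245). Mir146, the gene of miR-146a, lies on the minus strand at chr11:43374397-43374461. No annotated host gene overlaps it in GENCODE, and the nearest protein-coding gene, Pttg1, is 45789 bases away. Mir146b lies on the plus strand at chr19:46342762-46342870, within an intron of Mfsd13a. The 3 miRNAs are thus read from 3 chromosomes, and no hairpin is shared.

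The libraries held 10119758 to 11457656 miRNA reads. Levels are given in CPM, the reads per 1000000 of the library total after TMM scaling, and 10 reads stood for 0.831 to 1.01 CPM. The 7 listed neuronal miRNAs summed to 101605 to 142862 CPM in every library, so that markers of the labelled tissue were present. Comparisons used edgeR's quasi-likelihood test, which fitted all 9 libraries together, with Benjamini-Hochberg adjustment over the 628 miRNAs. Calls required an adjusted p no higher than 0.05 together with a log2 fold change of 1 or more in either direction. The exact two-sided permutation test of 3 libraries against 3 gives no p under 0.1, and that of 6 against 3 gives none under 0.0238.

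Of the 3 miRNAs, miR-155-5p was the scarce one and the one whose LPS + GAS libraries stood apart. It had 67, 36 and 75 reads in saline replicates 1, 2 and 3, which correspond to 6.40, 3.18 and 7.56 CPM. In the LPS libraries it had 56, 50 and 80 reads, or 5.57, 4.15 and 8.05 CPM. The LPS + GAS libraries held 128, 100 and 99 reads, or 11.9, 10.1 and 9.54 CPM. Thus every LPS + GAS library was above every other library, while the saline and LPS libraries covered nearly the same range. The nearest libraries on either side were LPS + GAS replicate 3 at 9.54 CPM and LPS replicate 3 at 8.05 CPM. Their 95% Poisson intervals, which cover counting error only, were 7.75 to 11.6 CPM and 6.38 to 10.01 CPM and overlapped.

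The mean level of miR-155-5p was 5.71 ± 2.27 CPM (SD, n = 3) for saline, 5.92 ± 1.97 CPM for LPS and 10.5 ± 1.26 CPM for LPS + GAS. In the order of levels the saline and LPS groups were neighbours and did not differ beyond their spread. By level it ranked between place 363 and place 472 of the 1448 miRNAs in the 9 libraries. Its coefficient of variation was 39.7% in the saline group and 33.3% in the LPS group, against 13.0% and 12.7% from counting error alone. In the LPS + GAS group it was 11.9%, with 9.58% from counting error.

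MiR-146a-5p was the most abundant of the 3, with a level that overlapped between all groups. Saline replicates 1, 2 and 3 had 5071, 3857 and 3152 reads, or 484, 341 and 318 CPM. Those of the LPS group had 3834, 3629 and 4483 reads, or 382, 301 and 451 CPM. Those of the LPS + GAS group had 4290, 4570 and 4244 reads, or 400.4, 462 and 409 CPM. The highest value was that of saline replicate 1 and the lowest that of LPS replicate 2. In rising order the group means were 378 ± 74.8 CPM (SD, n = 3) for LPS, 381 ± 90.2 CPM for saline and 424 ± 33.5 CPM for LPS + GAS, and no neighbours in this order differed beyond their spread. It ranked between place 107 and place 129, and its coefficient of variation of 23.7% in the saline group stood against 1.58% from counting error.

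MiR-146b-5p was lower than miR-146a-5p in all 9 libraries and had the smallest coefficient of variation of the 3 in the saline (10.6%) and LPS (4.05%) groups. Saline replicates had 2371, 2072 and 2104 reads, or 226, 183 and 212 CPM. LPS replicates had 2417, 2804 and 2206 reads, or 241, 233 and 222 CPM. LPS + GAS replicates had 2088, 2314 and 2082 reads, or 195, 234 and 201 CPM. In the LPS group, replicates 1 and 2 were above every saline library and replicate 3 was not. The group means were 207 ± 22.0 CPM (SD, n = 3) for saline, 209.8 ± 21.2 CPM for LPS + GAS and 232 ± 9.38 CPM for LPS, in rising order. The LPS libraries overlapped with both other groups, and the saline and LPS + GAS means differed by less than their SDs.

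**Figure D1:**
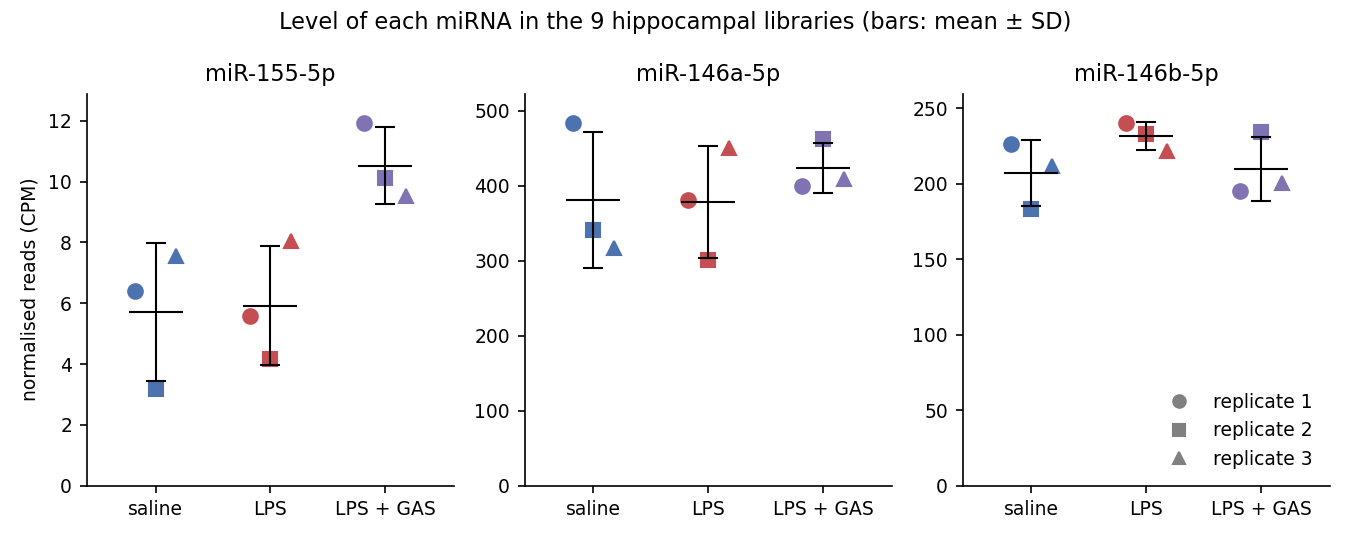
Normalised reads (CPM, linear axes from 0) of miR-155-5p, miR-146a-5p and miR-146b-5p by group (saline, LPS, LPS + GAS). Each point is a library, with its shape giving the replicate number, and the bars are the mean ± SD of 3 libraries. For miR-155-5p the 3 LPS + GAS libraries, at 9.54 to 11.9 CPM, lie above the other 6, which reach 8.05 CPM at most, whereas the groups overlap for the miR-146 pair.

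LPS vs saline asks what endotoxin alone did, and none of the 3 miRNAs was called. In this comparison 0 of 628 miRNAs (0.0%) were called by edgeR's quasi-likelihood test, 15 (2.39%) had an unadjusted p under 0.05, DESeq2's Wald test called 1 and voom called 0. The log2 fold change of miR-155-5p was 0.052 (standard error 0.34, 95% interval −0.72 to 0.82, adjusted p = 0.992 by edgeR). For miR-146a-5p it was −0.012 (standard error 0.22, 95% interval −0.50 to 0.47) and turned to 0.041 with DESeq2's size factors, so no direction is given. The value of miR-146b-5p was 0.16 (standard error 0.16, 95% interval −0.20 to 0.52). The adjusted p by edgeR was 0.992 for both miR-146 miRNAs too. Exact two-sided permutation tests on log2 CPM gave p = 0.9 for miR-155-5p, 1.0 for miR-146a-5p and 0.2 for miR-146b-5p, and in each case the groups overlapped, as against 1.91% of the 628 miRNAs with no overlap and higher in LPS and 1.91% lower. All 3 intervals lay within −1 and 1 on the log2 scale, as did those of 66.9% of the 628 miRNAs. A change of the size of the fold threshold was thus outside the interval of each, while smaller changes in either direction lay within it.

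LPS + GAS vs LPS asks what gastrodin added to endotoxin. MiR-155-5p was 1.78-fold higher by the fit, with a 95% interval of 1.05-fold to 3.02-fold. On the log2 scale this was 0.83 (standard error 0.34). By edgeR's quasi-likelihood test its unadjusted p was 0.0356, the 17th lowest of 628, and its adjusted p was 0.903, so it was not called. The exact two-sided permutation test on log2 CPM gave p = 0.1, the smallest that this design can give, with all 3 LPS + GAS libraries above all 3 LPS libraries. Of the 628 miRNAs, 4.14% had LPS + GAS libraries that were all above the LPS libraries and 2.23% were higher at an unadjusted p under 0.05. Among the 3 miRNAs described, 1 met each of these conditions. Over all miRNAs, 0 (0.0%) were called by edgeR, with 23 (3.66%) at an unadjusted p under 0.05, and 0 were called by DESeq2's Wald test and by voom.

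The miR-146 pair stayed within its spread here. For miR-146a-5p the log2 fold change was 0.17 (standard error 0.22, 95% interval −0.32 to 0.65, adjusted p = 0.975 by edgeR). That of miR-146b-5p was −0.14 (standard error 0.16, 95% interval −0.50 to 0.22, adjusted p = 0.950 by edgeR). The exact permutation p was 0.4 and 0.3, respectively, and the groups overlapped for both. Their intervals lay within −1 and 1, as did those of 63.5% of all miRNAs, whereas that of miR-155-5p, from 0.069 to 1.60, did not.

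For LPS + GAS vs saline, which has its LPS + GAS libraries in common with LPS + GAS vs LPS and its saline libraries with LPS vs saline, miR-155-5p was 1.85-fold higher by the fit, with a 95% interval of 1.09-fold to 3.14-fold. On the log2 scale this was 0.88 (standard error 0.34). Its unadjusted p by edgeR was 0.0278, the 13th lowest of 628, and its adjusted p was 0.998. No saline library reached the level of an LPS + GAS library (exact two-sided permutation p = 0.1), and 2.55% of the 628 miRNAs were higher in LPS + GAS without overlap. The change of miR-146a-5p was 0.15 on the log2 scale (standard error 0.22) and that of miR-146b-5p 0.018 (standard error 0.16), each with an adjusted p of 0.998 by edgeR and with overlapping groups. All 3 values were above 0, as were those of 44.1% of the 628 miRNAs, and the intervals of the miR-146 pair lay within −1 and 1, as did those of 64.6%. An unadjusted p under 0.05 was reached by 21 miRNAs (3.34%), of which 9 (1.43%) were higher, miR-155-5p among them. The 1 miRNA called (0.159%) was not of the trio.

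When both LPS-injected groups were set against saline, which asks for an effect of endotoxin with or without gastrodin, the log2 fold change of miR-155-5p was 0.47 (standard error 0.30, 95% interval −0.21 to 1.14, adjusted p = 0.997 by edgeR). Of the 6 LPS-injected libraries 4 were above all saline libraries, and the exact permutation p was 0.262. MiR-146a-5p and miR-146b-5p had log2 fold changes of 0.071 (standard error 0.19) and 0.090 (standard error 0.14), with exact permutation p of 0.643 and 0.381. None of the 3 was called and the groups overlapped for each, against 0.159% of the 628 miRNAs called and 0.637% higher with no overlap. All 3 values were above 0, which held for 41.7% of all miRNAs, and the 95% intervals of the miR-146 pair lay within −1 and 1, which held for 74.2%.

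**Figure D2:**
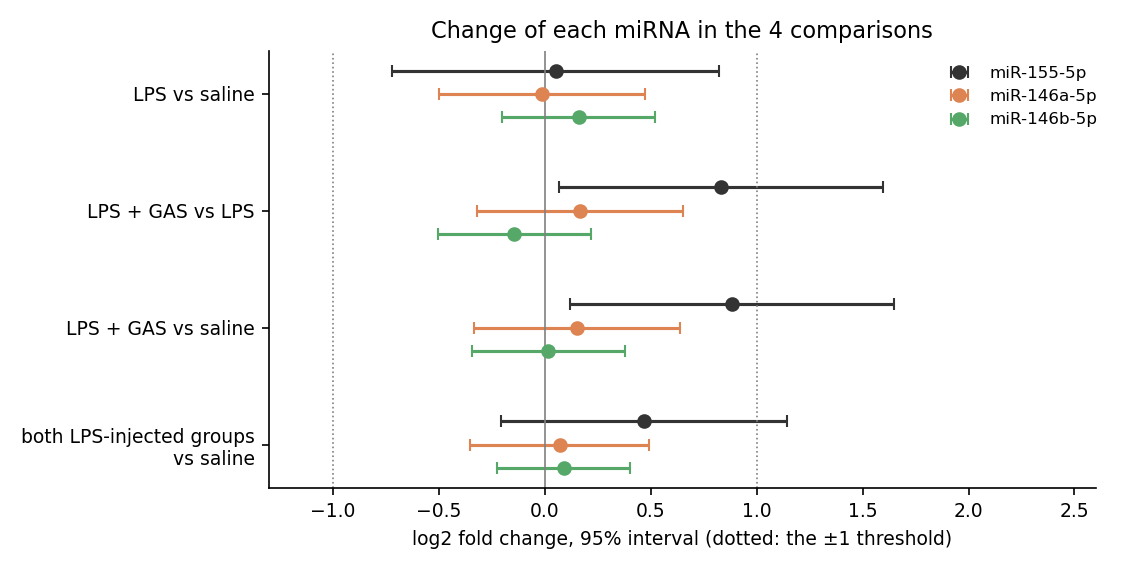
Log2 fold changes (horizontal axis) of the 3 miRNAs in the 4 comparisons, with points for edgeR's estimates and bars for their 95% intervals. Dotted lines mark the fold threshold of −1 and 1. The intervals of miR-155-5p exclude 0 where the LPS + GAS group is set against LPS (0.83) or saline (0.88), before adjustment over 628 miRNAs, and every interval of the miR-146 pair includes 0.

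Among all miRNAs tested, the log2 fold changes had a median of −0.045 for LPS vs saline, 0.0030 for LPS + GAS vs LPS and −0.028 for LPS + GAS vs saline. Both values of the miR-146 pair lay above the median in the comparisons with saline and on either side of it in LPS + GAS vs LPS, and those of miR-155-5p in both comparisons of LPS + GAS lay above them. The median standard error over the 628 miRNAs was 0.28. That of miR-155-5p, at 0.34, was larger and those of miR-146a-5p (0.22) and miR-146b-5p (0.16) were smaller.

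**Figure D3:**
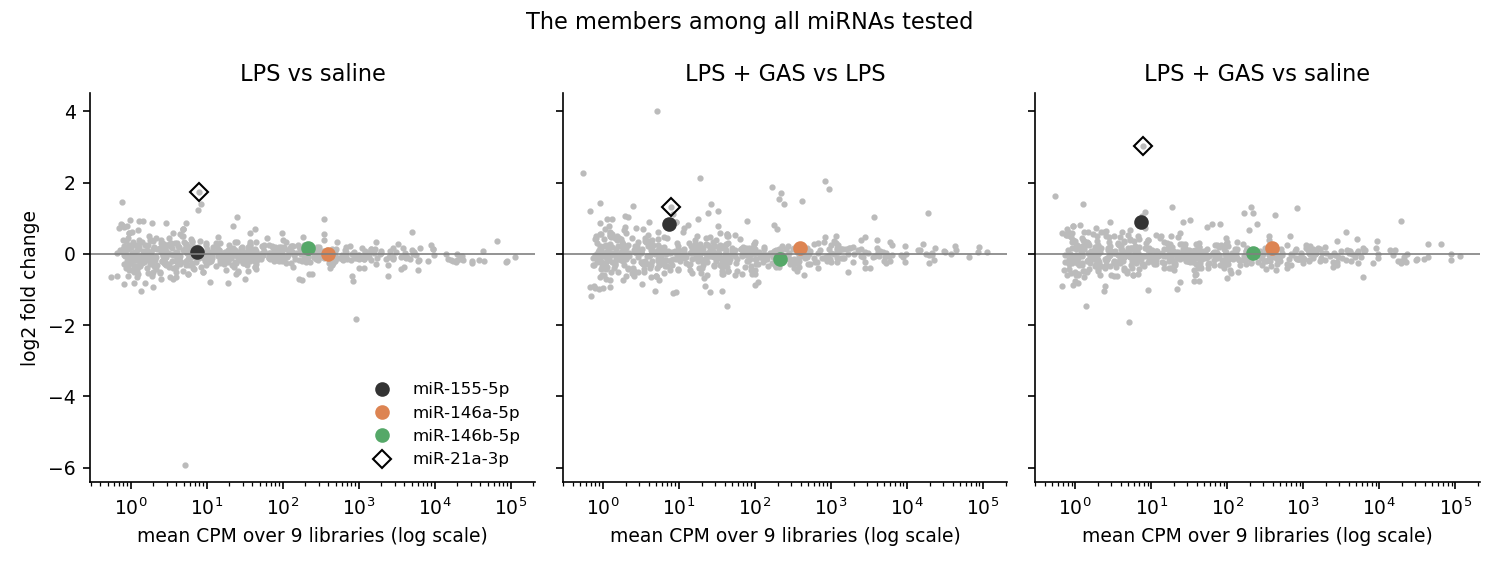
Log2 fold change against mean CPM over the 9 libraries (log scale) for 628 miRNAs in 3 comparisons. Grey points are all miRNAs, filled coloured points the 3 members, and the open diamond miR-21a-3p. MiR-155-5p moves from 0.052 in LPS vs saline to 0.83 and 0.88 in the comparisons with the LPS + GAS group, and the miR-146 points stay between −0.14 and 0.17.

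The difference of miR-155-5p in the LPS + GAS group kept its direction without any single library. That direction was already set by the lack of overlap in CPM, so its persistence is no separate evidence. Only the size of the difference was open to change. The log2 fold change of miR-155-5p was refitted with each of the 9 libraries removed in turn. In LPS + GAS vs LPS it ranged from 0.65 without LPS replicate 2 to 1.12 without LPS replicate 3. Against saline it ranged from 0.65 without saline replicate 2 to 1.17 without saline replicate 3. The lowest adjusted p by any alternative was 0.589 and 0.764, and the highest 0.997 and 1.00, so no alternative called it. In LPS vs saline the same fits ran from −0.23 without LPS replicate 3 to 0.35 without saline replicate 3, on both sides of 0.

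**Figure D4:**
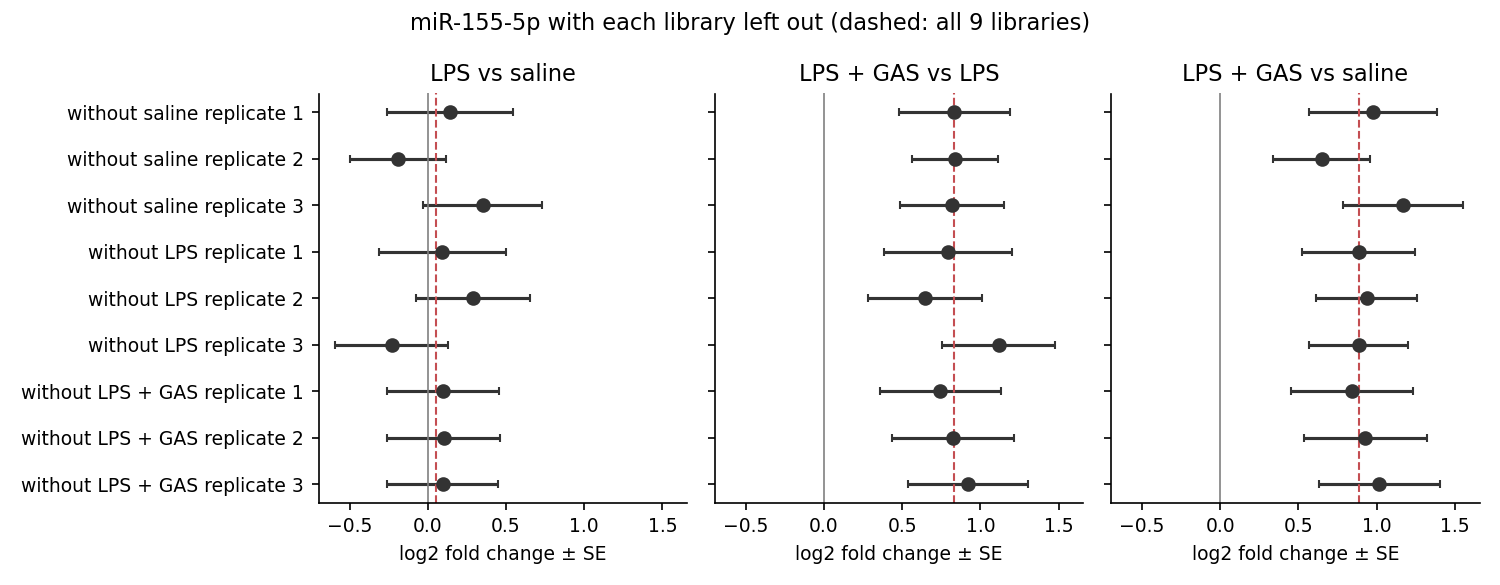
Log2 fold change of miR-155-5p (horizontal axis, points, with bars of 1 standard error) in 3 comparisons when the library named at the left is left out. Dashed lines give the value from all 9 libraries. All values lie at 0.65 or above in the comparisons with the LPS + GAS group, whose libraries did not overlap with the others. In LPS vs saline they lie on both sides of 0.

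Since 2 bases tell the reads of the miR-146 pair apart, the pair was also examined together. When their reads were summed, edgeR gave a log2 fold change of 0.095 for LPS vs saline (standard error 0.18), 0.060 for LPS + GAS vs LPS and 0.15 for LPS + GAS vs saline, and no sum was called. MiR-146b-5p made up 31.9%, 34.9% and 40.0% of the reads of the pair in saline replicates 1, 2 and 3, 38.7%, 43.6% and 33.0% in LPS replicates and 32.7%, 33.6% and 32.9% in LPS + GAS replicates. The LPS + GAS libraries were close together (33.1 ± 0.464%, SD, n = 3), whereas the saline (35.6 ± 4.13%) and LPS (38.4 ± 5.31%) libraries were spread widely. The difference in mean share was −5.32 percentage points in LPS + GAS vs LPS (exact two-sided permutation p = 0.2) and 2.80 in LPS vs saline (p = 0.6 by the same test), and all groups overlapped. Over the 9 libraries the ratio of miR-146a-5p to miR-146b-5p ran from 1.29 to 2.14.

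The reads of miR-155-5p per 1000 reads of the miR-146 pair give a level that needs no scaling of the library totals. This ratio was chosen after the values were seen. It was 9.003, 6.07 and 14.3 in saline replicates 1, 2 and 3, 8.96, 7.77 and 12.0 in LPS replicates and 20.1, 14.5 and 15.6 in LPS + GAS replicates. The LPS + GAS libraries were again above all others, by a small margin over saline replicate 3. The difference of the log2 ratio was 0.82 in LPS + GAS vs LPS and 0.85 in LPS + GAS vs saline (exact two-sided permutation p = 0.1 each), and 0.031 in LPS vs saline (p = 1.0 by the same test). Even its highest value, 20.1 in LPS + GAS replicate 1, left miR-155-5p far scarcer than the pair.

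The other arm of each hairpin, the passenger strand, was barely detected. MiR-155-3p had 2 reads in all, 1 each in LPS + GAS replicates 1 and 3, beside 691 reads of miR-155-5p. Its share was 0.289% of the reads of both arms, with an exact 95% binomial interval of 0.0350% to 1.04% that covers counting error only. MiR-146a-3p had 2 reads beside 37130 of miR-146a-5p, and miR-146b-3p had 1 beside 20458 of miR-146b-5p. A count of 0 in a library allows up to 3 reads, so no comparison of these arms between groups was possible, and none passed the filter.

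Other miRNAs known from Toll-like receptor and NF-kB responses form a list of 18, of which 15 were tested. In LPS vs saline 6 of them had a log2 fold change above 0 and 9 below, with a median of −0.0095. Of the 628 miRNAs 42.5% were above 0 in that comparison. With LPS + GAS against LPS 10 were above 0 and 5 below, with a median of 0.052, against 50.6% above 0 over all miRNAs. With LPS + GAS against saline 6 were above 0 and 9 below, with a median of −0.026. Both LPS-injected groups against saline had 7 above and 8 below, with a median of −0.015.

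An unadjusted p under 0.05 was reached in this list by 2 miRNAs. MiR-21a-3p, the passenger arm of the miR-21a hairpin, had 1.88 ± 0.324 CPM (SD, n = 3) for saline, 6.24 ± 0.791 CPM for LPS and 15.5 ± 5.40 CPM for LPS + GAS. It was the 1 member of the list that was called, and it was higher in LPS + GAS than in saline (adjusted p = 0.00151 by edgeR). In LPS vs saline its log2 fold change was 1.72, with an adjusted p of 0.150 by edgeR, and DESeq2's Wald test called it. MiR-21a-3p was not called in LPS + GAS vs LPS, where its log2 fold change was 1.32 (adjusted p = 0.600 by edgeR). It was also called as higher in both LPS-injected groups vs saline (adjusted p = 0.0060 by edgeR), a call that was lost without any 1 of the saline libraries (smallest adjusted p by edgeR between 0.050 and 0.073). MiR-223-3p, a miRNA of neutrophils and other myeloid cells, had mean levels of 7.34 ± 3.54 CPM (SD, n = 3) for saline, 5.64 ± 1.74 CPM for LPS and 12.2 ± 4.18 CPM for LPS + GAS. Its log2 fold change in LPS + GAS vs LPS was 1.11 (standard error 0.41, adjusted p = 0.903 by edgeR), which was not called. The mean level of miR-155-5p was thus in the same range as that of miR-223-3p. The LPS + GAS group had the highest mean of both, as it had of miR-21a-3p. Unlike miR-155-5p, miR-223-3p overlapped between groups, with 7.38 CPM in LPS + GAS replicate 2 and 11.1 CPM in saline replicate 1.

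In bulk tissue, a change in the number of cells of a type cannot be told apart from a change of RNA per cell. Markers of other cell types are therefore set beside the level of miR-155-5p. Of the 9 listed miRNAs of microglia and leukocytes 6 were tested, and none was at 0 in all libraries. The list summed to 5357 to 5997 CPM in the saline libraries, 3120 to 6955 CPM in the LPS libraries and 4444 to 6325 CPM in the LPS + GAS libraries. Most of each sum was miR-150-5p, with 2547 of the 3120 CPM in LPS replicate 2, so the sum mainly follows that miRNA. Against LPS, 5 of the 6 had in LPS + GAS a log2 fold change above 0 (median 0.27), beside 50.6% of all miRNAs, and against saline 4 of the 6 (median 0.41), beside 44.1%. Members of the list differed in direction at an unadjusted p under 0.05, and none was called. MiR-150-3p, at 2.26 ± 0.671 CPM (SD, n = 3) in saline, 1.076 ± 0.329 CPM in LPS and 0.822 ± 0.602 CPM in LPS + GAS, was lower than in saline by log2 fold changes of −1.05 for LPS, −1.46 for LPS + GAS and −1.25 for both groups together, with adjusted p by edgeR of 0.992 or more. MiR-342-3p had one of 0.49 in LPS + GAS vs saline. MiR-142a-3p, a miRNA of blood-derived cells and microglia that was picked after its values were seen, had 14.9, 14.7 and 9.88 CPM in the saline libraries, 14.6, 9.05 and 18.5 CPM in the LPS libraries and 19.4, 11.7 and 18.3 CPM in the LPS + GAS libraries. Its groups overlapped, with a log2 fold change of 0.23 (standard error 0.32) in LPS + GAS vs LPS.

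The summed red blood cell list, most of which was miR-451a, was higher in every LPS + GAS library than in the other 6 libraries, as miR-155-5p was. Of its 5 rows, those of miR-486a-5p and miR-486b-5p hold the same reads, so there were 4 measurements. These are not independent either, since miR-144-3p and miR-144-5p are the arms of 1 hairpin. The rows summed to 2065 to 4316 CPM in the saline libraries, 2189 to 3273 CPM in the LPS libraries and 4606 to 6221 CPM in the LPS + GAS libraries. MiR-451a alone had 4426, 4866 and 6049 CPM in LPS + GAS replicates 1, 2 and 3, above the 4178 CPM of the highest other library. The other rows overlapped between groups, with miR-144-3p at 32.1 CPM in LPS + GAS replicate 2 and 36.7 CPM in saline replicate 2. All 5 rows had a log2 fold change above 0 in LPS + GAS vs LPS (median 1.04), beside 50.6% of all miRNAs. All 5 were also above 0 in LPS + GAS vs saline (median 0.61), beside 44.1%. In LPS vs saline all 5 were below 0 (median −0.36), where miR-155-5p was at 0.052 and 42.5% of all miRNAs were above 0. In LPS + GAS vs LPS, 3 of the 4 measurements were higher at an unadjusted p under 0.05, beside 2.23% of all miRNAs, and none was called: miR-451a (1.04), miR-144-3p (1.21) and miR-486 (0.56). The part of blood cells in the miR-155-5p level was not tested.

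The choroid plexus and ependyma list, of which 12 of 13 miRNAs were tested, summed to 9808 to 29652 CPM in the saline libraries, 9605 to 22359 CPM in the LPS libraries and 12605 to 56702 CPM in the LPS + GAS libraries. Most of each sum was miR-204-5p, with 26890 of the 29652 CPM in saline replicate 1. All 12 had a log2 fold change above 0 in LPS + GAS vs LPS (median 1.27), beside 50.6% of all miRNAs. In LPS + GAS vs saline 9 of 12 did (median 0.90), beside 44.1%. All 12 were below 0 in LPS vs saline (median −0.54), where 42.5% of all miRNAs were above 0. None reached an unadjusted p under 0.05 by edgeR in any comparison. The rows did not all move together. MiR-448-3p had 67.7, 1.62 and 36.1 CPM in LPS + GAS replicates 1, 2 and 3, and miR-429-3p 161, 445 and 105 CPM. MiR-429-3p, miR-200a-3p and miR-200b-3p were the 3 below 0 in LPS + GAS vs saline. The lowest LPS + GAS sum was that of replicate 2, which also had the lowest miR-142a-3p of its group. The part of these cells in the miR-155-5p level was not tested. From LPS to LPS + GAS the median log2 fold change was 0.0027 for the 7 neuronal miRNAs, 0.42 for the 4 of oligodendrocytes and 0.19 for the 4 of vessels, with overlapping summed levels for each.

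**Figure D5:**
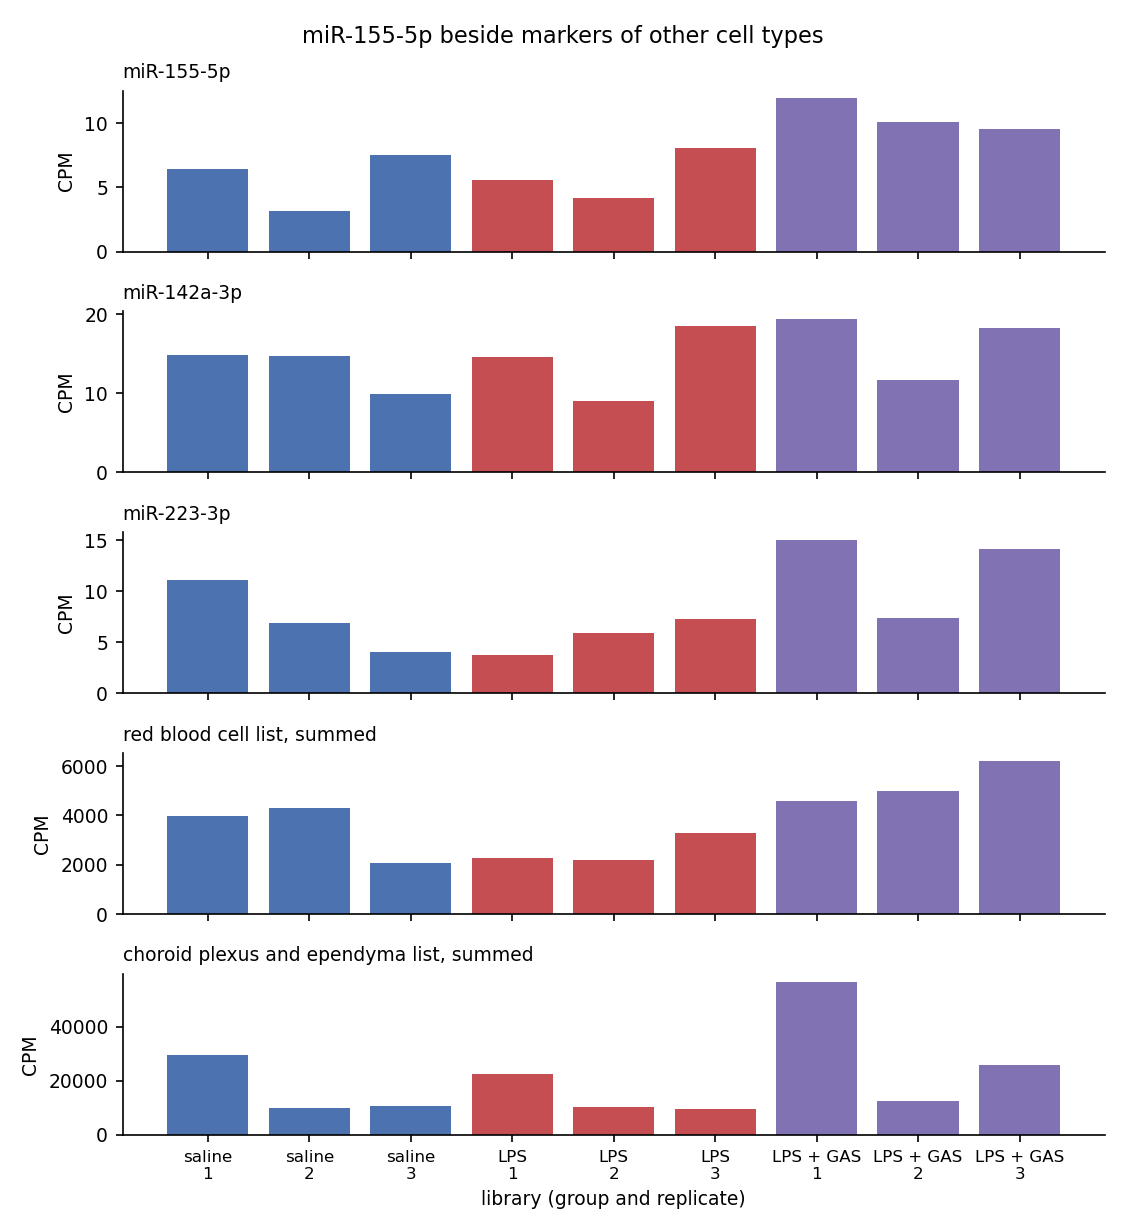
Bars from 0 give CPM in each of the 9 libraries, coloured by group, for miR-155-5p, miR-142a-3p and miR-223-3p and for the summed lists of red blood cells and of choroid plexus and ependyma. The 3 LPS + GAS libraries are the highest for miR-155-5p (9.54 to 11.9 CPM) and for the red blood cell list (4606 to 6221 CPM), while in the other 3 panels LPS + GAS replicate 2 falls among the other groups.

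The miRNAs whose pattern over the 9 libraries was most like that of each member were found by the root mean square difference of log2 CPM, each centred on its own mean. For miR-155-5p these were miR-450b-5p (0.35), miR-202-5p (0.35) and miR-122-3p (0.37), against a median of 0.62 over all miRNAs tested, and miR-146a-5p and miR-146b-5p came at places 27 and 172. For miR-146a-5p they were miR-15b-3p (0.10), miR-26a-5p (0.12) and miR-664-3p (0.13), against a median of 0.38, with miR-146b-5p at place 80. For miR-146b-5p they were miR-107-5p, miR-344b-3p and miR-337-5p (0.12 to 0.13), against a median of 0.32, with miR-146a-5p at place 157. Of these, miR-450b-5p (group means of 0.678 to 0.959 CPM), miR-122-3p (0.744 to 1.10 CPM) and miR-15b-3p (1.24 to 1.42 CPM) lay near the level of 10 reads. Counting error weighs on patterns at such levels, and the 0.5 CPM added before the log flattens them. A miRNA with no change over the libraries would score 0.541 for miR-155-5p, 0.229 for miR-146a-5p and 0.127 for miR-146b-5p. The closest to miR-146b-5p scored 0.125, hardly less than a flat profile. For miR-146b-5p the ranking therefore cannot tell a shared pattern from low variation. By this measure the miR-146 pair, with the same seed and nearly the same sequence, were 0.238 apart and not each other's closest patterns. These likenesses are descriptions over libraries that share their depth and scaling.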

How the data were processed

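Small RNA libraries of mouse hippocampus were built for the BGISEQ-500 platform, and the submitters' processing notes name the build GRCm38.p6. Not given in the sources used here are the aligner, the counting tool and the miRBase release. The deposited table holds, per library, read counts that the authors did not normalize, and whole numbers named exp, never above the read count, which the authors' sources used here do not define. The authors' own comparisons in the table (log2 fold changes, p-values and q-values) were not used. Each column was mapped to its sample by name.

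Counts were fitted in R 4.3.3 with edgeR 4.0.16 (TMM, glmQLFit, glmQLFTest), for the 628 miRNAs with at least 10 reads in 3 libraries, without covariates. Errors beside CPM are SDs and intervals of fold changes come from the fit. The script was tested on simulated data. The members, lists, tests and alternatives were chosen with earlier results of these data known. The 3 members are always named. From the lists, those with an unadjusted p under 0.05, the other arms and miR-21a-3p are named, and miR-142a-3p was named after its values were seen. The 3 miRNAs most like each member were found on log2(CPM + 0.5). Sequences and positions were matched to RefSeq and GENCODE M21 on GRCm38.p6.

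As alternatives the fits used all miRNAs with any read, those with 50 reads in 3 libraries, size factors of DESeq2, DESeq2 1.42.0, voom from limma 3.58.1, robust estimation, a block for the replicate number, the groups compared alone, the exp values and each library left out. In LPS + GAS vs saline, the deviations of same-numbered libraries from their group means correlated at 0.257, 0.284 and 0.322. They correlated at 0.327, 0.217 and −0.270 in LPS vs saline, and at −0.132, 0.0375 and −0.256 in LPS + GAS vs LPS. The labels do not say what the replicate numbers share, so whether they pair the libraries is not known. The main fits and the permutation tests left the libraries unpaired, and the numbers were used only in the alternative with a block.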

Additional observations from a re-analysis of the deposited data

How the results depend on the processing

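No alternative called any of the 3 miRNAs or the summed miR-146 reads. The log2 fold change of miR-155-5p stayed between 0.82 and 0.89 in LPS + GAS vs LPS and between 0.85 and 0.97 in LPS + GAS vs saline under the alternatives that kept all libraries (the ratio to miR-146 reads included). Over all fits, those with a library left out among them, the unadjusted p ran from 0.0142 to 0.113 and from 0.0072 to 0.066. With the replicate number as a block, which pairs the same-numbered libraries, the log2 fold change of miR-155-5p was 0.89 against LPS and 0.97 against saline in the LPS + GAS group, 0.076 in LPS vs saline, and the block changed no call. MiR-146a-5p in LPS vs saline turned from −0.012 to 0.041 with DESeq2's size factors and with DESeq2's Wald test, 0.029 with no filter, 0.022 with at least 50 reads and 0.035 with the exp values. With DESeq2's size factors the median log2 fold change of the 628 miRNAs in LPS vs saline rose too, from −0.045 to 0.0094. The cause of the turn was not tested, and every value of miR-146a-5p is far under its standard error.

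With each library left out, LPS vs saline ran from −0.23 to 0.35 for miR-155-5p, from −0.16 to 0.20 for miR-146a-5p, from 0.13 to 0.23 for miR-146b-5p and from 0.0066 to 0.25 for their sum. LPS + GAS vs LPS ran from 0.65 to 1.12 for miR-155-5p, from 0.046 to 0.31 for miR-146a-5p, from −0.27 to −0.081 for miR-146b-5p and from −0.032 to 0.12 for the sum. LPS + GAS vs saline ran from 0.65 to 1.17 for miR-155-5p, from 0.071 to 0.36 for miR-146a-5p, from −0.057 to 0.13 for miR-146b-5p and from 0.046 to 0.31 for the sum. Both LPS-injected groups vs saline ran from 0.23 to 0.76 for miR-155-5p, from −0.0057 to 0.28 for miR-146a-5p, from 0.062 to 0.17 for miR-146b-5p and from 0.026 to 0.28 for the sum. The mean share of miR-146b-5p ran from 34.7% to 36.2%.

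Among the miRNAs tested, which were 628 with the filter and 1347 with no filter, the calls in LPS vs saline moved from 0 to 2 with no filter, to 1 with DESeq2's Wald test, and between 0 and 1 with single libraries left out (1 without LPS replicate 2 or LPS + GAS replicate 3). In LPS + GAS vs LPS they ran from 0 to 1 (1 without LPS replicate 2). In both LPS-injected groups vs saline they moved from 1 to 2 with no filter and ran from 0 to 2 with single libraries left out, at 0 without any of the saline replicates and at 2 without LPS replicate 2. A fit with only the groups compared was not run for both LPS-injected groups, since it has all libraries already. With 36 to 128 reads per library, depth limits miR-155-5p more than the miR-146 pair.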
